A study of Mus musculus with 2 samples.

Results

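Imprinted genes are genes that are transcribed mainly from the copy inherited from 1 parent. The 35 genes described here are imprinted genes of the mouse, taken from a fixed list by their gene name on the array, and they are 35 of 36493 gene names that the array carries. Each was represented by non-control probes of that name, and the brightest probe over both arrays stood for the gene. Of the 35 genes, 21 are known as paternally expressed, 12 as maternally expressed, and Grb10 and Gnas as genes whose active parental copy depends on the tissue or the transcript.

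The cells were mouse neural stem and progenitor cells (NSPCs), which had been differentiated from embryonic stem cells by way of embryoid bodies and propagated as free-floating neurospheres. Total RNA on the miR-153 array came from tertiary neurospheres in which the microRNA miR-153 was overexpressed. Total RNA on the control array came from tertiary neurospheres labelled as the overexpression control. Both cultures were at passage 2 and on day 18 after the embryoid body stage, and no other allele or agent is named for either. The vector, its promoter, the embryonic stem cell line and whether the lines were clonal are not given in the sources used here. Each of the 2 groups had 1 array, so no difference in the text has a replicate check, no test was run, and every value describes these 2 cultures. In RNA from a whole culture, fewer cells of a type and less RNA per cell cannot be told apart.

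Imprinting is set by DNA methylation that is laid down differently in egg and sperm at imprinting control regions, and many imprinted genes lie in clusters under 1 such region. Several of them control growth of the embryo and placenta, and several of the paternally expressed ones are strongly expressed in the developing brain. In long cultures of embryonic stem cells and their derivatives imprints are known to be lost at some loci. The arrays measured RNA from both parental copies together, so parental origin was not measured, and the sets below are named from the known biology of each gene. miR-153 pairs with messenger RNAs mainly through its seed, bases 2 to 8. Both mature arms, from RefSeq on GRCm38.p6 at chr12:117250821-117250881 on the plus strand, are shown to identify the overexpressed microRNA, with the seed in capitals. The labels do not say which arm was overexpressed, and mature microRNAs were not measured by these probes.
mmu-miR-153-3p: uUGCAUAGucacaaaagugauc
mmu-miR-153-5p: gUCAUUUUugugacguugcagcu

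Levels are log2 signals relative to the 75th percentile of the same array, so that a level of 0 is that percentile, and a difference is the miR-153 level minus the control level. The words higher and lower are used of genes at least 2-fold apart (a log2 difference of at least 1), by a rule of size and not a test. Levels of different genes are not comparable, because each probe has its own response. The 75th percentile was 549 intensity units on the miR-153 array and 435 on the control array, against median backgrounds of 41.5 and 42 units. Probe spots well above background made up 55.6% of the miR-153 array and 52.5% of the control array, controls aside, and none was saturated. The difference of repeat spots of the same probe had an SD of 0.0724 (250 probes), which covers technical error within an array only. Different probes of the same gene differed by an SD of 0.461 (3445 genes). The cells carried their labelled markers: all 10 neural stem and progenitor markers were measured on both arrays, among them Sox2 at 3.58 and 3.29 and Fabp7 at 8.70 and 8.51 on the miR-153 and control arrays. Of these 10, 3 were higher (Hes5 by 2.44, Prom1 by 1.74 and Sox1 by 1.15) and none lower, with Nes at -0.95, Vim at -0.72 and Pax6 at -0.69, and their summed level was 9.51 on both arrays. Neuron markers were higher at the same time, with 7 of 10 at least 2-fold higher, all 10 above 0 and a summed level of 7.20 on the miR-153 array and 5.75 on the control array. Of 8 pluripotency markers, 6 were measured on both arrays, 3 of them lower and none higher. Zfp42 was not well above background on either array. Pou5f1 passed that flag with miR-153 only, but its level was -4.47 there and -4.18 on the control array, so it gives no direction. The summed level of the pluripotency markers was 2.16 on the miR-153 array and 3.19 on the control array.

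Of the 35 imprinted genes, 31 were well above background on both arrays, Slc22a18 with miR-153 only, and Rtl1, Dio3 and Phlda2 on neither. Among these 31, 10 (32.3%) were higher with miR-153, 6 (19.4%) were lower, and 15 lay between. The background over all 20477 gene names measured on both arrays was 9.22% higher and 11.1% lower (20.3% apart in either direction), and over the 13103 genes matched to RefSeq it was 11.1% higher and 9.85% lower. The median difference was 0.58 for the imprinted genes, against -0.11 for all gene names and 0.01 for RefSeq-matched genes. Of the 31 genes, 21 had a difference above 0 and 10 below it. The 10 higher genes were Magel2, Meg3, Asb4, Nnat, Usp29, Dlk1, Ndn, Igf2, Snrpn and Mkrn3. The 6 lower genes were Slc38a4, Ascl2, Mest, Grb10, Inpp5f and H19. Scaling to spike-in probes moved every gene up by 0.24, and the median of the imprinted genes lay between 0.47 and 0.82 over the settings tried, above the median of all gene names in each of them. Bright probes alone gave 8 higher and 1 lower imprinted gene, because 5 of the 6 lower genes are too dim for that filter.

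**Figure D1:**
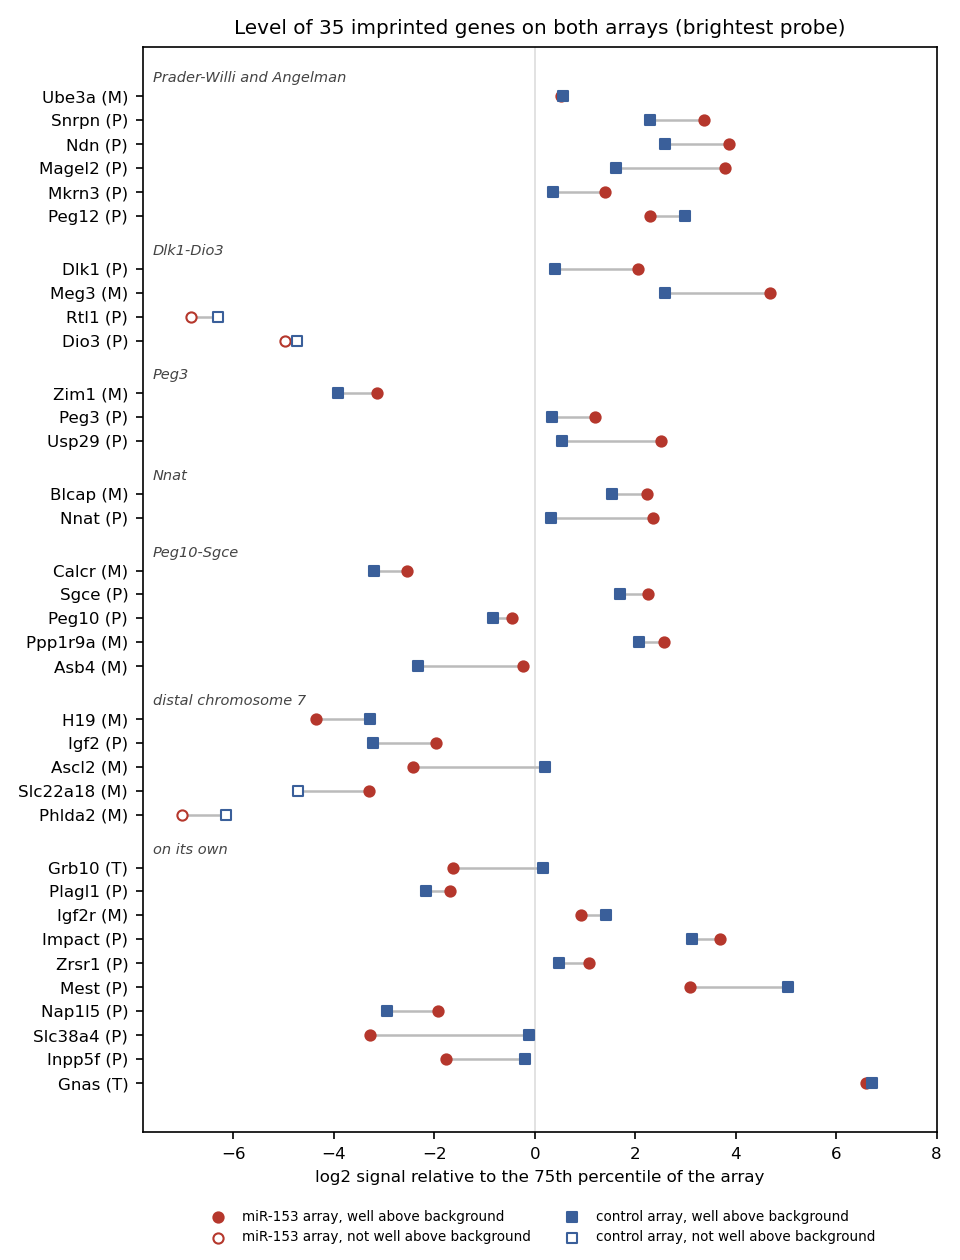
Level of each of the 35 imprinted genes on the miR-153 array (red circles) and the control array (blue squares), as log2 signal relative to the 75th percentile of each array, by cluster; open symbols are not well above background, and M, P and T mark maternally expressed, paternally expressed and tissue- or transcript-dependent genes. Positions are to be compared within a row. In every measured row of the Dlk1-Dio3, Peg3, Nnat and Peg10-Sgce clusters the red circle lies to the right of the blue square. It lies to the left in 6 of the 10 genes outside the listed clusters.

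By parent of expression, the paternally expressed set held 19 measured genes. Of these, 8 (42.1%) were higher and 3 (15.8%) lower, while 8 lay between, and the median difference was 0.86. The maternally expressed set held 10 measured genes, of which 2 (20%) were higher and 2 (20%) lower. The other 6 lay between, and the median of this set was 0.57. Over all gene names 9.22% were higher and 11.1% lower, and 10 genes are too few to set the maternally expressed shares apart from that. Above 0 lay 15 of 19 paternally expressed genes and 6 of 10 maternally expressed genes. Both sets therefore held genes in either direction, and the difference between the sets was not tested. Under normexp background correction the medians were 0.57 for the paternally expressed set and 0.17 for the maternally expressed set. With bright probes only they were 1.03 and 0.49.

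**Figure D2:**
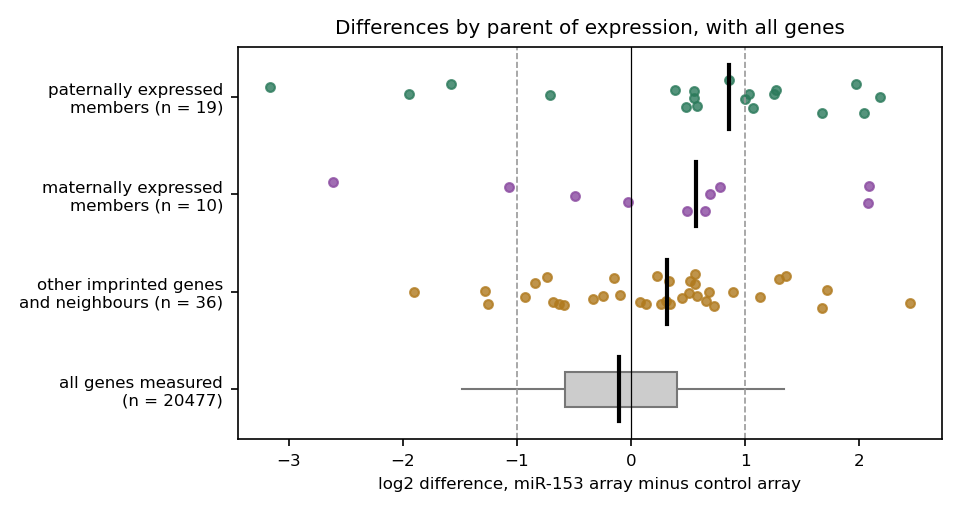
Log2 difference (miR-153 minus control) of each measured gene in the paternally expressed set, the maternally expressed set and a list of other imprinted genes and their neighbours, with the median as a thick bar; the bottom row shows all 20477 gene names as a box from the 25th to the 75th percentile with whiskers from the 5th to the 95th. Each of the 3 upper rows has points on both sides of 0, with medians of 0.86, 0.57 and 0.32, against -0.11 for all gene names.

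The Prader-Willi and Angelman cluster on chromosome 7 (mm9) held 6 measured genes, 4 of them higher and none lower. Its paternally expressed genes are silent or defective in Prader-Willi syndrome in human, and Ube3a is lost in Angelman syndrome. Magel2, a MAGE-family regulator of ubiquitin ligases (probe at chr7:69526370-69526429), was at 3.79 on the miR-153 array and 1.61 on the control array, a difference of 2.18 (4.53-fold). Ndn, which encodes necdin, a growth-restraining MAGE protein of postmitotic neurons (probe at chr7:69493847-69493906), was at 3.87 and 2.59, a difference of 1.27. Snrpn, which encodes the neuronal spliceosome protein SmN, was at 3.37 on the miR-153 array and 2.30 on the control array by its brightest probe at chr7:67132330-67132389, a difference of 1.07. The other 2 Snrpn probes differed by 1.25 and 0.75, so the probes of this gene fell on both sides of the 2-fold line and all above 0. Mkrn3, a makorin RING-finger protein, was at 1.40 on the miR-153 array and 0.36 on the control array, a difference of 1.03, and its other probe gave 1.16. It stood just inside the 2-fold line and just outside it, at 0.996, when a level-dependent shift was removed by lowess.

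The remaining 2 genes of this cluster were not higher. Ube3a, a ubiquitin ligase that is maternally expressed in neurons and expressed from both copies in most other cells, was at 0.53 on the miR-153 array and 0.55 on the control array. Its difference of -0.03, and 0.07 by its other probe, was within the spread of repeat spots, and its sign turned under spike-in scaling, median scaling and the mean of probes. Peg12, a paternally expressed relative of the FRAT proteins that bind GSK3, was at 2.29 on the miR-153 array and 3.001 on the control array, a difference of -0.71. Its second probe differed by -1.36, and the mean of both by -1.03, so the 2-fold call of Peg12 depended on the probe. Within this cluster Magel2, Ndn, Snrpn and Mkrn3 were thus higher while Peg12, also paternally expressed, was on the other side of 0. The array also carried 102 probes between and around these genes that belong to no member. Of 53 such probes measured on both arrays, 5 were higher and 3 lower with a median of 0.20, against 9.03% higher and 11.5% lower over all 27446 probes measured. Between Ube3a and Snrpn, 16 measured plus-strand probes had a median of 0.27 with 1 higher, and 14 measured minus-strand probes a median of 0.07 with 1 higher. The 3 lower probes were adjacent, at chr7:69117848-69118027 on the minus strand, with differences of -1.77, -1.41 and -1.49.

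**Figure D3:**
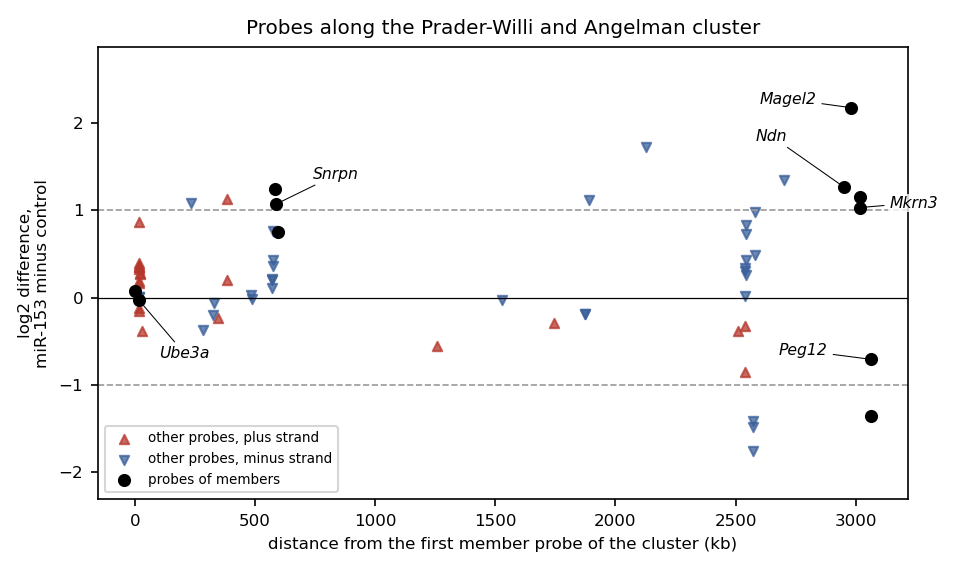
Log2 difference (miR-153 minus control) of probes measured on both arrays along the Prader-Willi and Angelman cluster, by distance in kb from the first member probe; black points are member probes, red and blue triangles are other probes of the plus and minus strand, and dashed lines mark 2-fold. Magel2, Ndn, Mkrn3 and Snrpn lie above 0, Ube3a at 0 and Peg12 below 0, and most other probes lie between the dashed lines.

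In the Dlk1-Dio3 cluster on chromosome 12 (mm9), both measured genes were higher although they are expressed from opposite parental copies. Meg3, a maternally expressed long noncoding RNA, was at 4.68 on the miR-153 array and 2.60 on the control array, a difference of 2.08 (4.24-fold). A second probe differed by 0.98, just short of 2-fold. Both lie above 0, and they are printed because they sample different places of the transcribed region, at chr12:110809678-110809737 and chr12:110799558-110799617 on the plus strand of mm9, and gave 2.08 and 0.98 in that order.
Meg3 probe 1: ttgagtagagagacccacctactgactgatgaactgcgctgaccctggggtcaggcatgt
Meg3 probe 2: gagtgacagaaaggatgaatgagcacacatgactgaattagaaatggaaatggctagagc

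Dlk1, a paternally expressed transmembrane protein of the Delta-Notch family (probe at chr12:110698721-110698781), was at 2.07 on the miR-153 array and 0.40 on the control array, a difference of 1.67 (3.18-fold), and 1.79 by its second probe. Rtl1, a retrotransposon-derived gene, and Dio3, the deiodinase that inactivates thyroid hormone, did not rise well above background on either array, so neither has a fold. Maternally expressed noncoding RNAs downstream of Meg3 lie on the plus strand and end in Mirg, a microRNA host transcript. Mirg, which was no member, was at 1.19 on the miR-153 array and -0.52 on the control array, a difference of 1.71. The stretch of 205 kb from Meg3 to the Mirg probe was then read by strand, a choice made after its values were seen. Apart from Meg3, it held 45 plus-strand probes, of which 23 were measured on both arrays, 10 of them (43.5%) higher and 1 (4.35%) lower, against 9.03% and 11.5% over all probes measured, and their median was 0.87. A further 9 plus-strand probes rose well above background with miR-153 only, and none did so in the control only. Over all 36493 gene names the array also leaned this way, with 1932 above background with miR-153 only and 721 in the control only. Those are counts of gene names by their brightest probe and not of single probes, so only the direction can be compared. The minus strand of the same stretch held 27 probes, of which 4 were measured on both arrays, with a median of -0.01 and none at least 2-fold apart. A further 5 minus-strand probes rose well above background with miR-153 only. The medians leave such probes out on both strands. Their differences, with the control signal not well above background, ran from 0.19 to 2.69 on the minus strand and from 0.33 to 2.61 on the plus strand. Between Mirg and Dio3, 5 measured plus-strand probes had a median of -0.40, with 1 higher. The strands were not compared by a test, few minus-strand probes were measured, and neighbouring probes of 1 transcript are not independent of each other.

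**Figure D4:**
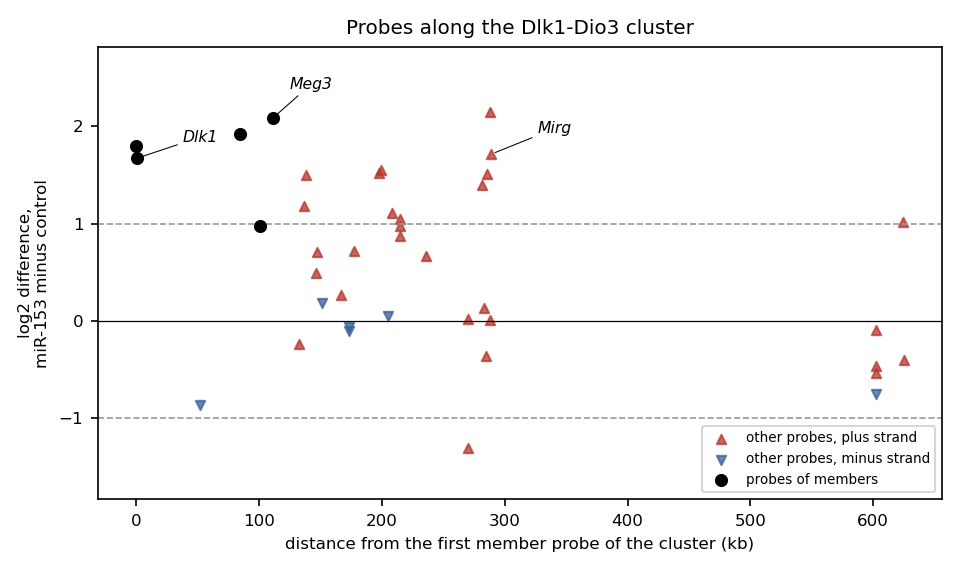
Log2 difference (miR-153 minus control) of probes measured on both arrays along the Dlk1-Dio3 cluster, by distance in kb from the first member probe; black points are probes of Dlk1 and Meg3, red and blue triangles are other probes of the plus and minus strand, and dashed lines mark 2-fold. Of the 23 plus-strand probes from Meg3 to Mirg 10 lie above the upper dashed line. The 4 minus-strand probes there lie near 0, and 4 of 5 plus-strand probes beyond Mirg lie below 0. Probes above background with miR-153 only are not drawn.

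The Nnat and Peg3 clusters each held a paternally expressed gene that was higher by 3.92-fold or more, beside neighbours that stayed between the lines. Nnat, which encodes neuronatin, a small membrane protein of the developing brain (probe at chr2:157387978-157388037), was at 2.36 on the miR-153 array and 0.32 on the control array, a difference of 2.04 (4.12-fold), and 2.21 by its second probe. Blcap, in whose intron Nnat lies, was at 2.23 and 1.54 on the miR-153 and control arrays, a difference of 0.69. Usp29, a paternally expressed deubiquitinase gene (probe at chr7:6919806-6919865), was at 2.51 on the miR-153 array and 0.54 on the control array, a difference of 1.97 (3.92-fold). Peg3, a zinc-finger gene whose start lies beside that of Usp29 on the other strand, was at 1.21 and 0.35 on the miR-153 and control arrays, a difference of 0.86. The second Peg3 probe gave 0.71, and Peg3 passed the 2-fold line under spike-in scaling alone, at 1.10. Zim1, a maternally expressed zinc-finger gene of this cluster, was dim, at -3.14 on the miR-153 array and -3.92 on the control array, a difference of 0.78. Its difference ran from 0.17 with normexp to 1.03 with lowess, so its size is poorly fixed.

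By their brightest probes, all 5 measured genes of the Peg10-Sgce cluster on chromosome 6 were above 0, and 1 of them was higher. Asb4, a maternally expressed substrate adaptor of a ubiquitin ligase (probe at chr6:5382886-5382945), was at -0.24 on the miR-153 array and -2.32 on the control array, a difference of 2.08 (4.22-fold). Its second probe was at -3.87 on the miR-153 array and, not well above background, at -4.23 on the control array. That sets only a nominal bound of 1.28-fold, as explained under the processing. Calcr, the calcitonin receptor gene, differed by 0.65, Sgce, which encodes epsilon-sarcoglycan, by 0.55, and Ppp1r9a, which encodes the actin-binding protein neurabin, by 0.49. The other measured Ppp1r9a probe differed by only 0.009. Peg10, a retrotransposon-derived gene expressed from the paternal copy, differed by 0.39 by its brightest probe and by -0.10 by the other. Of 14 measured non-member probes in this window none was higher and 3 were lower (21.4%), against 9.03% higher and 11.5% lower over all probes, numbers too small to set this window apart.

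The genes of distal chromosome 7 went in different directions. Igf2, a paternally expressed growth factor, was at -1.96 on the miR-153 array and -3.21 on the control array, a difference of 1.25 (2.38-fold), from a single probe at chr7:149839661-149839720. With normexp background correction the difference was 0.47, and the 2-fold call of Igf2 was lost. H19, a maternally expressed long noncoding RNA that shares its enhancers and control region with Igf2, was at -4.35 on the miR-153 array and -3.28 on the control array, a difference of -1.07. H19 was close to background: of its 6 probes, 4 were well above background on neither array, and the other measured probe differed by -0.73. The 2-fold call of H19 was lost in 6 of 9 settings, in which its difference reached -0.50, and it stayed below 0 in all of them. The 2 measured H19 probes are printed because the call rests on them. They lie on the minus strand, at chr7:149761492-149761551 and chr7:149761756-149761815 of mm9.
H19 probe 1: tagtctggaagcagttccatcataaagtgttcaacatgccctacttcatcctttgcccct
H19 probe 2: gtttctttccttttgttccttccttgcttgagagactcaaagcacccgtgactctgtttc

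Ascl2, a maternally expressed transcription factor needed by trophoblast (probe at chr7:150152734-150152793), was at -2.41 on the miR-153 array and 0.20 on the control array, a difference of -2.61 (6.11-fold lower). With normexp its difference was -2.03. Slc22a18, a transporter gene, was at -3.30 on the miR-153 array and did not rise well above background in the control. Its nominal bound was 2.05-fold higher. Phlda2, which limits placental growth in the mouse, was not well above background on either array. In the same region but outside the list of 35, Cdkn1c, a maternally expressed inhibitor of the cell cycle, was at 4.84 on the miR-153 array and 3.17 on the control array, a difference of 1.68. Kcnq1ot1, the paternally expressed noncoding RNA that silences Cdkn1c in cis, was at -2.64 and -0.74 on the miR-153 and control arrays, a difference of -1.90. That is its brightest minus-strand probe. Plus-strand probes named KCNQ1ot1, in capitals, were counted apart. The brightest of those was at 0.71 on the miR-153 array and 1.51 on the control array, a difference of -0.80. Another differed by -0.54, so the 2-fold call depended on the probe. Igf2 and H19 lay on opposite sides of 0, and so did Cdkn1c and Kcnq1ot1. Of 4 trophoblast markers measured on both arrays, 2 lay below 0 and 2 above it, with differences from -0.29 to 0.40, and none was 2-fold apart. Their summed level was 4.93 on the miR-153 array and 5.22 on the control array, and Elf5 and Krt7 did not rise well above background on either. Most of that sum came from Gcm1, whose brightest probe is placed on chromosome 7 by the array's annotation and may not report this gene.

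Outside the clusters listed here, none of 10 measured genes was at least 2-fold higher, and 4 (40%) were lower. Over all gene names 9.22% were higher and 11.1% lower, so none higher among 10 genes is near the background. This group depends on the clusters chosen, since some of the 10 have neighbours on the wider list below, such as Mest with Copg2. Slc38a4, a paternally expressed amino acid transporter (probe at chr15:96825482-96825541), was at -3.28 on the miR-153 array and -0.11 on the control array, a difference of -3.17 (8.97-fold lower). It was dim with miR-153, and with normexp its difference was -2.25. Mest, a paternally expressed gene of the alpha/beta hydrolase family that is known from mesoderm (probe at chr6:30698279-30698338), was at 3.09 on the miR-153 array and 5.03 on the control array, a difference of -1.95 (3.85-fold lower). The brightest Mest probe was spotted 10 times, and its difference ranged from -2.05 to -1.83 with an SD of 0.0593 over spots, which is error within the arrays and not between cultures. The other 2 Mest probes differed by -1.97 and -1.20, so every probe of Mest was lower. Grb10, an adaptor that restrains insulin and IGF signalling and is paternally expressed in neurons but maternally in most other mouse tissues, was at -1.63 on the miR-153 array and 0.16 on the control array, a difference of -1.79 (3.46-fold lower). Inpp5f, an inositol phosphatase gene, was at -1.77 and -0.19 on the miR-153 and control arrays, a difference of -1.57. Only a brain transcript of Inpp5f is known as imprinted, and the probe at chr7:135813452-135813511 is not assigned to a transcript here.

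Mesoderm and mesenchyme markers lay on both sides of 0. Of 10 measured on both arrays 6 lay above 0 and 4 below it, and 4 were higher and none lower. Their summed level was 3.78 on the miR-153 array and 3.12 on the control array, and Meox1 was not well above background on either. Of 9 endoderm and yolk sac markers, 3 were measured on both arrays, 2 of them higher, with a summed level of 3.53 and 2.17 on the miR-153 and control arrays. Most of that sum came from 1 gene, Foxa2, at 3.43 on the miR-153 array and 1.99 on the control array. Neither array had Sox17, Gata4, Gata6, Afp or Apoa1 well above background, and Ttr rose above it with miR-153 only. Of the 10 neuron markers 7 were higher, and of the 31 measured imprinted genes 10 were higher and 6 lower, as given above. The part of any of these cell types in the differences of the imprinted genes was not tested.

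The other 6 genes outside the listed clusters stayed between the lines. Nap1l5, a nucleosome assembly family gene, was at -1.93 on the miR-153 array and -2.93 on the control array, and its difference of 0.999 stopped just short of 2-fold. It passed under spike-in scaling, quantile normalization, median scaling and lowess, and was at 0.47 with normexp. Zrsr1, a splicing factor relative, differed by 0.58, Impact, an inhibitor of the kinase GCN2, by 0.55, and Plagl1, a zinc-finger gene that restrains growth, by 0.48. The 4 Plagl1 probes agreed in sign, from 0.19 to 0.48. Igf2r, the maternally expressed receptor that clears IGF2, was at 0.92 on the miR-153 array and 1.41 on the control array, a difference of -0.49 with an SD of 0.0517 over its 10 spots. Gnas, which encodes the stimulatory G-protein alpha subunit and further transcripts with different parental origin, was at 6.59 on the miR-153 array and 6.71 on the control array by its brightest probe. That difference of -0.13 turned its sign under spike-in scaling, quantile normalization, lowess and the mean of probes. A second Gnas probe differed by 1.32, another rose well above background in the control only, and the last on neither array, so the probes of Gnas did not share a direction.

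**Figure D5:**
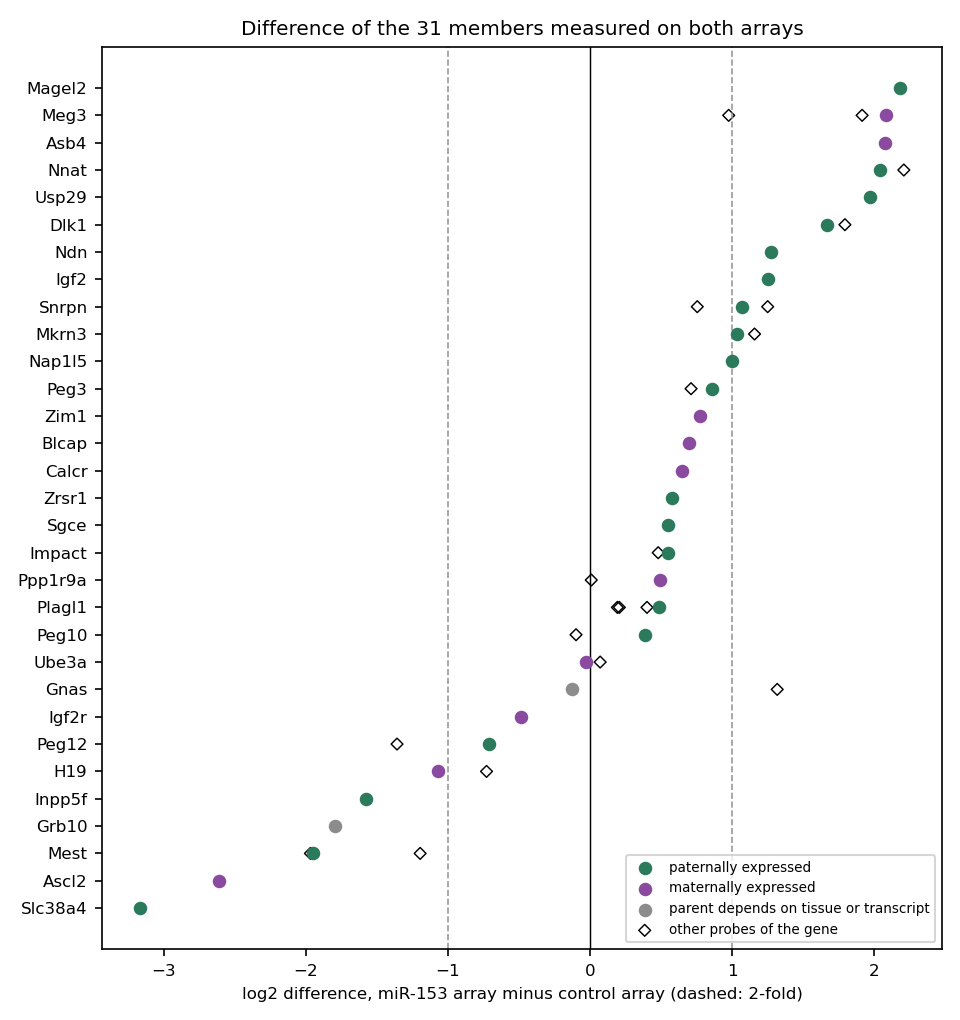
Log2 difference (miR-153 minus control) of the 31 genes measured on both arrays in order of size, coloured by parent of expression, with other measured probes of the same gene as open diamonds and dashed lines at 2-fold. Magel2, at 2.18, is at the top and Slc38a4, at -3.17, at the bottom, and the open diamond of Gnas, at 1.32, lies on the other side of 0 from its filled point.

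Of the 15 imprinted genes with more than 1 probe measured on both arrays, 12 had all of them on the same side of 0, and Gnas, Ube3a and Peg10 did not. Of the 31 measured genes, 24 kept their call in every setting that gave a value, and H19, Igf2, Peg3, Zim1, Mkrn3, Peg12 and Nap1l5 did not. No gene called higher or lower changed sign in any setting.

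Promoter sequence was available for 30 of the 35 genes, as 48 windows from 250 bases before to 50 bases after an annotated start (RefSeq, GRCm38.p6). Peg10, H19, Sgce, Impact and Rtl1 were not matched. These windows held a median of 13.5 CG dinucleotides, against 7 over all 32851 promoters, and 31 of 48 (64.6%) held at least 10, against 43.5% of all promoters. The hexamer TGCCGC, which when methylated is bound by ZFP57, the zinc-finger protein that keeps imprints methylated, was searched on both strands. It was present in 11 of 48 windows (22.9%), against 11.6% of all promoters. Among windows with at least 10 CG dinucleotides the shares were 32.3% and 22.5%, and it overlaps no other motif searched except CG itself. Several windows of the same gene overlap and are not independent, and a match is a description of letters and not a binding site. Among the higher genes 4 of 18 windows held the hexamer, and among the lower genes 3 of 10. The median of CG dinucleotides was 8.5 in windows of the higher genes and 12 in those of the lower genes. At least 10 were held by 44.4% and 50% of these windows, so the higher genes were near the share of all promoters. The promoters of 2 higher and 2 lower genes are printed to show this range, with CG dinucleotides in capitals. Nnat (chr2:157559828-157560127, plus strand) holds 17 CG and 1 hexamer, and Magel2 (chr7:62376729-62377028, plus strand) holds 10 CG and no hexamer. Mest (chr6:30737800-30738099, plus strand, 1 of 3 starts) holds 17 CG and 2 hexamers. Slc38a4 (chr15:97020310-97020609, minus strand, 1 of 3 starts) holds 5 CG and no hexamer, so the lower genes include windows with many and with few CG dinucleotides.
Nnat promoter: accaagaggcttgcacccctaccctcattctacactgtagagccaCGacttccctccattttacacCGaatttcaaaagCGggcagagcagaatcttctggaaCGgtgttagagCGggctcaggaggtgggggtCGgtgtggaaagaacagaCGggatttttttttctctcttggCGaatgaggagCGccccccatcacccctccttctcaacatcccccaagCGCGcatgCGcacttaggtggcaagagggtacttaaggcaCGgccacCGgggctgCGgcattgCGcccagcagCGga
Magel2 promoter: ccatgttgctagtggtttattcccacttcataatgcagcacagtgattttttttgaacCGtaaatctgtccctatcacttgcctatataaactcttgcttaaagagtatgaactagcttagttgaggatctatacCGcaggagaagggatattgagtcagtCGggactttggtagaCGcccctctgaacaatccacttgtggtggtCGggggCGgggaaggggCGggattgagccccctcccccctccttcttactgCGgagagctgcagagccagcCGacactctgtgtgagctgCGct
Mest promoter: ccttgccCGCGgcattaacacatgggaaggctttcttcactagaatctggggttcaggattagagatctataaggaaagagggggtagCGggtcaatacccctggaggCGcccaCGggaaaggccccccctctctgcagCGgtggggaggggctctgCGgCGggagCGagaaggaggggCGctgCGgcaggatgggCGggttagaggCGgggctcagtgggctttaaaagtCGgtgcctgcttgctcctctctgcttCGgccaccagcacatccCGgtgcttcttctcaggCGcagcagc
Slc38a4 promoter: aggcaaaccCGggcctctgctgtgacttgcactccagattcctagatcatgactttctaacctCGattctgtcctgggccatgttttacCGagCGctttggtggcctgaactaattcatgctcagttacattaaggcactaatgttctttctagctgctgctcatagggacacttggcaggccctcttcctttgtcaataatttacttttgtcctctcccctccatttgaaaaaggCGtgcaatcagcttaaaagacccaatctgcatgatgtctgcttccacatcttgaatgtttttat

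Imprints are kept through cell divisions by a small set of proteins, and 9 of 11 of their genes were measured on both arrays. Uhrf1, which brings the maintenance methyltransferase to newly copied DNA, was at 2.83 on the miR-153 array and 4.98 on the control array, a difference of -2.14 (4.42-fold lower), and -2.09 by its other probe. Dnmt1, that methyltransferase, was at 0.57 and 1.68 on the miR-153 and control arrays, a difference of -1.11 from 1 probe. Arid4b, a subunit of a Sin3 deacetylase complex, was at 1.12 on the miR-153 array and -0.02 on the control array, a difference of 1.14, but its other probe gave -1.92, so its direction is not settled. Zfp57 itself differed by -0.44 and by 0.83 in its 2 probes, Trim28, its corepressor, by -0.24, Zfp445 by 0.59 and Ctcf by 0.16, all short of 2-fold. Dppa3 and Ctcfl, genes of the germ line and early embryo, did not rise well above background on either array. DNA methylation was not measured.

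A wider list of 53 other imprinted genes and genes in the same clusters gave 48 on the array and 36 measured on both. Of these 36, 6 (16.7%) were higher and 3 (8.33%) lower, with a median of 0.32, against 9.22% higher, 11.1% lower and a median of -0.11 over all gene names. The share of lower genes was near the background. The higher ones besides Mirg and Cdkn1c were Ddc, the decarboxylase of dopamine and serotonin synthesis, at 1.10 on the miR-153 array and -1.34 on the control array (difference 2.44), Begain at 1.35, Dcn at 1.30 and Bcl2l1 at 1.13. Dcn, which encodes the matrix proteoglycan decorin, is also on the list of mesenchyme markers. The lower ones besides Kcnq1ot1 were Dhcr7, a late enzyme of cholesterol synthesis, with a difference of -1.28, and Jade1, with -1.26. The Kcnq1ot1 call rests on its minus-strand probe, as given above. Cdh15, a cadherin gene of muscle, did not rise well above background with miR-153 and was at -2.97 on the control array. Its nominal bound was 3.92-fold lower. Pdk4 likewise rose above background in the control only, with a nominal bound of 1.94-fold lower. Next to members of the 35, Airn, the noncoding RNA that silences Igf2r on the paternal copy, differed by -0.93, Commd1, which contains Zrsr1, by -0.69, and Copg2, which lies next to Mest, by 0.68. Copg2 and Mest therefore lay on opposite sides of 0.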

How the data were processed

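Gene expression was measured on 1-colour Agilent arrays from Cy3-labelled RNA of 2 cultures, 1 array per group, on the same slide. The authors deposited scanner files made, according to the submitters' processing notes, with version 10.7.3.1 of Agilent Feature Extraction. Their processed signal is a linear intensity from which background had been subtracted, per the file headers. The series table's deposited intensity values equal that signal divided by a constant for each array (485 for miR-153, 381 for control). They are linear and not centred, with medians of 0.0614 and 0.0662, and no column there belongs to another sample (0 columns). They served as an alternative.

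Of 62976 spots per array, 59305 held no control probe. Those flagged as outliers on an array (229) were dropped from both, repeat spots were averaged, and 55674 probes remained. Log2 of the signal minus the array's 75th percentile gave the level, and the brightest probe stood for a gene. The 35 genes had 82 spots and 64 probes, 51 of them well above background on both arrays. Names of 26296 probes came from RefSeq by accession, and the others from the files. Probe positions are those of the files, on mm9, counted from 1, and no mm9 gene annotation was used, so exons and introns are not given. A gene above background on 1 array has a nominal lower bound only. It is set against the higher of its own signal on the other array and the lowest level above background there (-4.94 for miR-153, -4.34 for control). Some probes missed the flag above that lowest level, such as Pou5f1 at -4.18 in the control, so the bound is not strict. A list's summed level is the log2 of the sum of the linear levels of all its genes on the array, including those not well above background.

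All 35 genes were named, and of the other imprinted and maintenance genes those at least 2-fold apart or with such a bound. Zfp57, Trim28, Zfp445, Ctcf, Airn, Commd1, Copg2, Pdk4 and the genes on neither array were added after their values were seen. The result of 1 Meg3 probe is not reported here. The genes and lists were chosen with earlier results of these data known. No test was run on single arrays, so there is no p-value, and the number of arrays limits the precision. Alternatives were normexp (limma 3.58.1, R 4.3.3, offset 50), spike-in scaling, quantile normalization, median scaling, lowess (statsmodels 0.14.6), the mean of probes, no filter on dim probes, bright probes only, outlier spots kept and the series table. Other steps used Python 3.11.15 with numpy 2.4.6 and pandas 2.3.3, and were tested on simulated data.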

Additional observations from a re-analysis of the deposited data

How the results depend on the processing

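Under all 10 settings the medians of the imprinted genes together, of the paternally and maternally expressed sets and of the other imprinted genes and neighbours lay above 0. Medians of single clusters were not recomputed. The median of all 31 measured imprinted genes was 0.47 with normexp, 0.82 with spike-in scaling, 0.68 with median scaling and 0.69 with bright probes only. The paternally expressed median was 0.57 with normexp, 1.10 with spike-in scaling, 0.96 with median scaling, 0.79 with the mean of probes, 0.58 with no filter on dim probes and 1.03 with bright probes only. The maternally expressed median was 0.17, 0.81, 0.67, 0.45 and 0.49 with normexp, spike-in scaling, median scaling, the mean of probes and bright probes only. For the other imprinted genes and neighbours the median was 0.18 with normexp, 0.56 with spike-in scaling, 0.39 with quantile normalization, 0.42 with median scaling, 0.42 with lowess, 0.11 with no filter and 0.54 with bright probes only, and the count of lower genes was 8 with no filter. Lower imprinted genes numbered 1 with bright probes only, since fewer genes enter. Over all gene names the count of higher genes was 1199 with normexp, 2842 with spike-in scaling, 3607 with no filter and 862 with bright probes only, and the count of lower genes 4371 with no filter and 1043 with bright probes only. The median of all gene names was 0.14, -0.0239, -0.00477, -0.000596 and -0.32 with spike-in scaling, quantile normalization, median scaling, lowess and no filter. Apart from the filters and the scaling shift itself, the cause of these moves was not tested.

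No paired analysis was possible because each group has 1 array, and for the same reason no replicate could be left out. Signal over background limits the dim genes: H19, Zim1, Calcr, Igf2 and Nap1l5 lay within a few log2 units of the lowest level above background, and normexp moved Igf2 to 0.47, Zim1 to 0.17 and Nap1l5 to 0.47. Slc38a4 and Ascl2 were also dim on the miR-153 array, at -3.28 and -2.41. Normexp moved their differences to -2.25 and -2.03, so the sizes of these folds are not fixed. No spread between cultures could be measured, and slide position differs between the arrays.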
